A study of Mus musculus with 2 samples.

Results

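The genes described here serve homologous recombination and the Fanconi anaemia pathway of DNA repair. They are 34 named genes, chosen by symbol from 23084 gene symbols in the deposited expression table, and each of the 34 was found there. Homologous recombination mends breaks of both DNA strands by copying the intact sister chromatid, so it works mainly in cells that have begun to replicate their DNA. Nucleases cut back the broken ends, BRCA1 and BRCA2 with their partners prepare the exposed strand for the search, and helicases and translocases resolve the joined strands. The Fanconi pathway deals with crosslinks between the strands: a core complex marks the FANCD2-FANCI pair with ubiquitin at a stalled fork, and recombination completes the repair.

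The RNA was that of MEF, mouse embryonic fibroblasts grown as primary cells, here of strain ICR, sequenced after a cell sort. All cells were loaded with calcein and with cobalt chloride, which quenches the dye outside closed mitochondria. Dim cells formed the high mPTP opening group, in which the permeability transition pore of the inner mitochondrial membrane is open more, and bright cells formed the low mPTP opening group. Each group has 1 library, the labels give neither the number of embryos nor of cultures behind it, and no difference below has a replicate check. The comparison asked how transcript levels differ between cells with much and with little pore opening.

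Levels are FPKM (reads or fragments per kilobase of exon, scaled by the reads counted in the library), a measure per length. The length is that of all annotated exons of a gene together, so comparisons of level between genes carry the error of that length. The steps between FPKM values imply depths of 16375735 reads or fragments in the high and 15060435 in the low mPTP opening library. Ratios are FPKM in the high over FPKM in the low mPTP opening library, and the interval after a ratio is an exact 95% interval for counting error alone. It leaves out variation between cultures and between sorts. Differences used for counts are log2((high + 1)/(low + 1)) of FPKM, which understates differences of low genes, and a gene whose mean over both libraries reached 1 FPKM is called measured. Fibroblast genes were abundant in both libraries, with a summed level of 6181 FPKM in the high and 6248 FPKM in the low mPTP opening library, but they were uneven. Of 9 measured, 6 had a positive difference, 1 of them by 25% or more (Thy1, ratio 1.44), and 3 were lower by the same factor (Dcn, ratio 0.566, Lum, 0.625, and Col3a1, 0.758). S100a4 of that list was at 0.105 FPKM in the high and listed at 0 in the low mPTP opening library. Markers that point to cells other than fibroblasts had lower sums in the sort for high mPTP opening. All 11 macrophage markers were lower there, with a summed level of 463 FPKM against 948 FPKM in the low mPTP opening library, and so were all 6 mesothelial markers (17.5 against 39.0 FPKM) and all 6 glia and Schwann markers (1.5 against 12.4 FPKM). None of these markers was at 0 in either library. The 4 endothelial markers summed to 1.41 FPKM in the high and 2.27 FPKM in the low mPTP opening library, and the 4 epithelial markers to 0.535 and 0.992 FPKM, with Krt5 listed at 0 in the low mPTP opening library. Whether these cells bear on the repair genes was not tested, and fewer cells of a type and less RNA per cell cannot be told apart in such libraries.

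The repair genes were low to moderate in level and, in the majority, slightly higher in the high mPTP opening library. Exo1, a resection nuclease, Rad54b, a DNA translocase, the Fanconi genes Fancb, Fanca and Fancd2, the helicase gene Blm and Brca1 were the 7 members that were higher by 25% or more after 1 FPKM was added to each value. No member was lower by the same factor. Of the 34 members 31 were measured, and the 3 others, Palb2, Fancc and Rad51b, had a mean under 1 FPKM. The 7 are 7 of the 31 measured members, while among 11898 measured genes of every kind 6.59% passed that size upward and 13.3% passed the same factor downward. At 1.5-fold on that scale none of the 31 was higher or lower, against 1.54% (higher) and 4.38% (lower) of all measured genes. These counts depend on the constant added and on the level required. With 0.1 FPKM added in place of 1 FPKM, 10 of the 31 were higher by 25% or more and 5 by 1.5-fold, against 8.59% and 2.71% of all measured genes. With 5 FPKM added none of the 31 was higher by 25% or more, against 2.88% of all measured genes. Where the mean had to reach 2 FPKM, 2 of 17 members were higher by 25% or more, against 6.27% of all genes of that level. None of these settings gave a member lower by the same factor. A positive difference was seen for 23 of the 31 (26 of all 34), against 45.4% of all measured genes. The median difference of the measured members was 0.12, against -0.02 over all measured genes, and 0.14 over all 34 members. These are small differences, and the range of the measured members ran from -0.21 for Xrcc3 to 0.50 for Exo1.

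Counting error alone sets a limit for genes of this level. The members had between 40 and 1629 reads in a library. The interval of the ratio lay wholly above 1 for 13 of the 34 members, held 1 for 21 and lay wholly below 1 for none. Over the 31 measured members the intervals above 1 numbered 12. Of the 8159 measured genes whose summed reads lay in the members' range, 162 to 2901, the interval lay above 1 for 16.1% and below 1 for 27.4%, with 5.07% higher by 25% or more, and over all measured genes these shares were 20.4% and 26.4%. The FPKM values summed to 290645 in the high and 316758 in the low mPTP opening library. Scaling both to equal sums near that level adds 0.12 to each log2 ratio. It left 8 measured members 25% or more higher and none lower by the same factor, while the shares of all measured genes became 13.4% and 8.73%. Scaling both to a sum of 1000000 changes a second thing at once, since the added 1 then weighs as 0.291 FPKM of the high and 0.317 FPKM of the low mPTP opening library. With both changes 12 measured members were higher by 25% or more and none was lower by the same factor, against 16.1% and 10.8% of all measured genes.

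**Figure D1:**
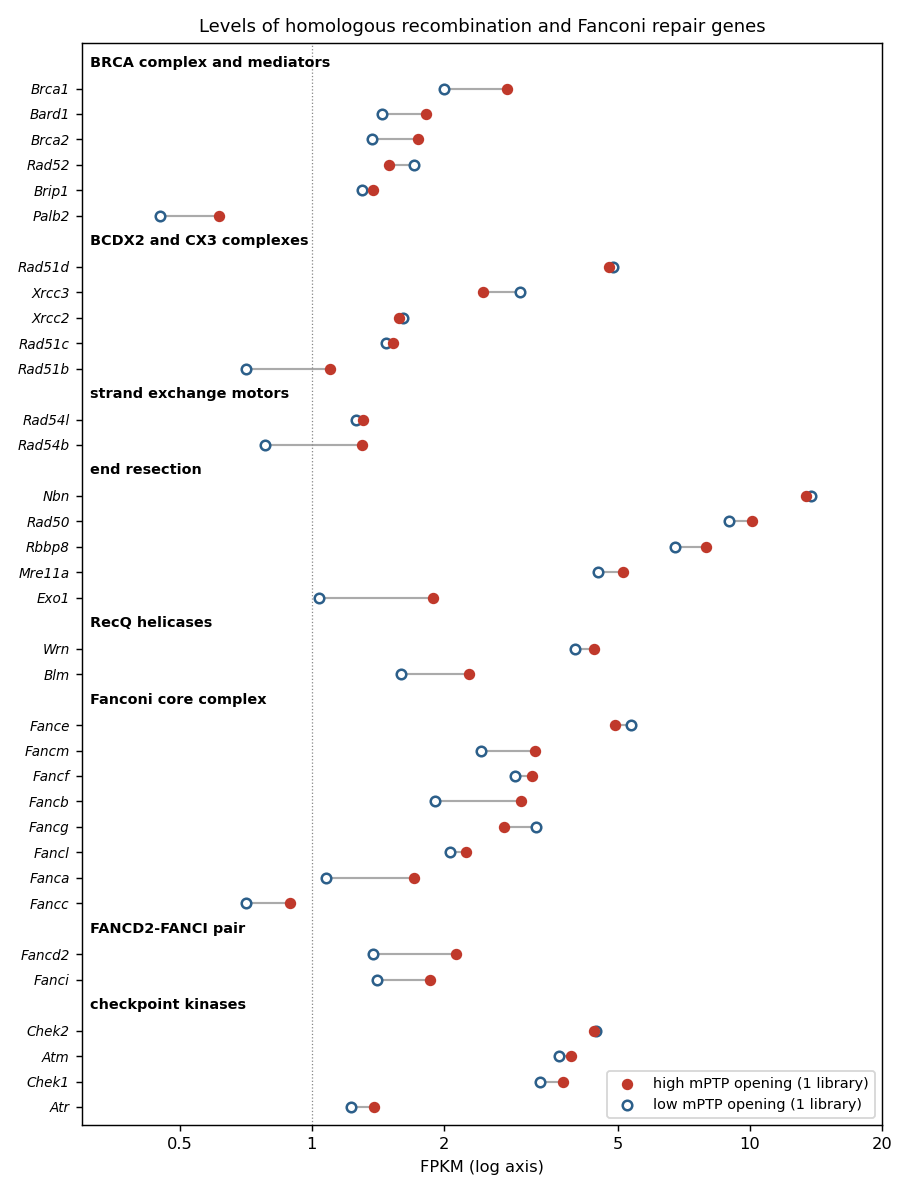
Level of each of the 34 repair genes in the high mPTP opening library (filled red points) and the low mPTP opening library (open blue points), in FPKM on a log axis, grouped by role and with a dotted line at 1 FPKM; each point is 1 library, with no error bar. Nbn is highest, at 13.4 FPKM in the high and 13.8 FPKM in the low mPTP opening library, Palb2 is lowest, at 0.615 and 0.452 FPKM, and the widest gap on the log axis is that of Exo1, at 1.89 and 1.04 FPKM.

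Nbn, Rad50 and Rbbp8, all genes of end resection, were the 3 highest members in both libraries. In the high mPTP opening library these and the nuclease gene Mre11a held the top places, with Nbn at 13.4, Rad50 at 10.1, Rbbp8 at 7.94 and Mre11a at 5.12 FPKM. The lowest in both libraries were Palb2 and Fancc, with Palb2 at 0.615 FPKM and Fancc at 0.891 FPKM in the high mPTP opening library, against 0.452 FPKM for Palb2 and 0.707 FPKM for Fancc in the low mPTP opening library. The longest summed exon length among the members, 23629 nt, was that used for Atr.

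Promoter sequence is shown for the 4 of the 7 higher genes that have an entry in the RefSeq table used (build GRCm38.p6) and, beside them, for Fancg and Xrcc3, the measured members with the most negative differences. Each stretch holds the 250 bases before the RefSeq start, read along the gene. For Fancg and Blm that start lies inside the gene as the deposited positions place it, which reach to 43010506 and 80535119. Part of these stretches, with the E2F letters of Fancg, thus lies within the gene by those positions. The regions are chrX:164980342-164980591 (plus strand) for Fancb, chr8:123318577-123318826 (minus strand) for Fanca, chr7:80534999-80535248 (minus strand) for Blm, chr11:101551956-101552205 (minus strand) for Brca1, chr4:43010302-43010551 (minus strand) for Fancg and chr12:111813880-111814129 (minus strand) for Xrcc3. Capitals mark the CCAAT box on either strand (CCAAT or ATTGG) and, in Fancg, the E2F letters TTTCCCGC.
Fancb: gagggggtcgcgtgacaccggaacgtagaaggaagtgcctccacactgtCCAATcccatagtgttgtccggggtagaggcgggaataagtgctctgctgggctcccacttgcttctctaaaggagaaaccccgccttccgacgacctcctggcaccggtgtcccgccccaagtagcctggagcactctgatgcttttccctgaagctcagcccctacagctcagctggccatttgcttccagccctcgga
Fanca: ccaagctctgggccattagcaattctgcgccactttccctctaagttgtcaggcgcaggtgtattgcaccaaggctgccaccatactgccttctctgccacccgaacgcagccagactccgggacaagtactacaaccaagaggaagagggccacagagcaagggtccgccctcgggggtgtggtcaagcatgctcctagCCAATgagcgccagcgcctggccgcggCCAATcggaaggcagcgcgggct
Blm: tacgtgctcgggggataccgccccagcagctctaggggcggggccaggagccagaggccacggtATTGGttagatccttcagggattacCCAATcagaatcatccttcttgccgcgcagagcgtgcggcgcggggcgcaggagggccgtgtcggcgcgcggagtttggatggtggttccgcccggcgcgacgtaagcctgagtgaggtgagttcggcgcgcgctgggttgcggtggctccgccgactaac
Brca1: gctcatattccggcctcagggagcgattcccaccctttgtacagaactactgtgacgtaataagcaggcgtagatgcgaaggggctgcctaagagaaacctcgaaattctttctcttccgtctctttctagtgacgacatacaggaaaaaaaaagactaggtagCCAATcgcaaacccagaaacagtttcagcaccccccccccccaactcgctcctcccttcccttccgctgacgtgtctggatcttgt
Fancg: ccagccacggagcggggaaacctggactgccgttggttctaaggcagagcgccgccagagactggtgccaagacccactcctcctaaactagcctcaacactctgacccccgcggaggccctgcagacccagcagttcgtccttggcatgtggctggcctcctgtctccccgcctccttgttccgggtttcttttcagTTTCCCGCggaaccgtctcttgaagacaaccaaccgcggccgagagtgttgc
Xrcc3: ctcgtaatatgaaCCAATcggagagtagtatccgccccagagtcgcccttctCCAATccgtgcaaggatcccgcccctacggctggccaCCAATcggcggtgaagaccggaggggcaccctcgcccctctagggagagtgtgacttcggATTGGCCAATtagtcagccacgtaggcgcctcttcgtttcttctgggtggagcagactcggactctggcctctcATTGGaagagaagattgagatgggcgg
The CCAAT box is bound by the factor NF-Y and is common in promoters of cell cycle genes. In the windows of 250 bases before to 50 bases after the start, CCAAT on either strand was found in 16 of the 25 members with an entry, against 43.1% of 8619 measured protein-coding genes and 37.4% of all 32851 windows. It was found in 6 of the 8 members whose interval lay above 1 (Blm, Brca1, Fanca, Fancb, Fancm and Rad51b) and in 10 of the other 17, so it was present in both kinds. The 6 boxes of Xrcc3 stand beside a negative difference. The letters TTTCCCGC, TTTGGCGC, TTTCGCGC or TTTGCCGC, forms of the E2F site, were found on either strand in 5 of the 25 members (Brca2, Bard1, Chek2, Fancg and Rad51c), against 4.92% of the measured protein-coding genes and 2.26% of all windows. Of the 8 members whose interval lay above 1 only 1, Brca2, held these letters, against 4 of the other 17. The element TTTGAA, known as the CHR of cell cycle genes, was found on either strand in 2 of the 25 (Rad51b and Bard1), against 13.9% of the measured protein-coding genes. Some genes have several windows and count once if any holds the letters. A match describes letters in a window and does not show a bound site.

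**Figure D2:**
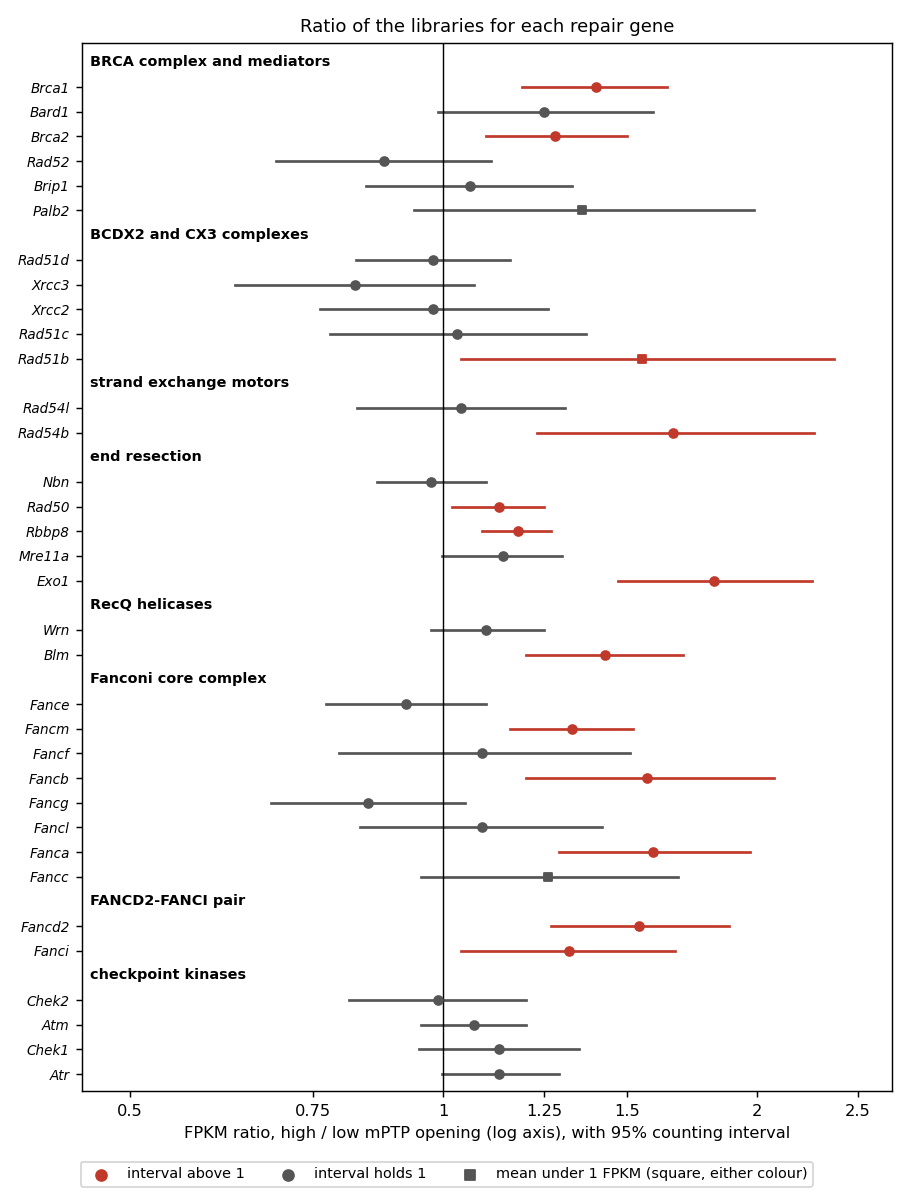
FPKM ratio of the high over the low mPTP opening library for each repair gene (log axis), with exact 95% intervals for counting error, grouped by role; red marks intervals above 1, grey marks intervals that hold 1, and squares mark genes with a mean under 1 FPKM. Exo1 has the highest ratio, 1.82, and Xrcc3 the lowest, 0.823, and no interval lies wholly below 1.

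Among the genes of end resection, which turn a broken end into single-stranded DNA, Exo1 stood out by size. Exo1, a 5′ to 3′ exonuclease that carries resection over long stretches (chromosome 1, 175880581 to 175913489), was at 1.89 FPKM in the high and 1.04 FPKM in the low mPTP opening library. These came from 261 and 132 reads, a ratio of 1.82 (1.47 to 2.26), and Exo1 shares no exon sequence with another annotated gene. The genes that start resection differed less. Rbbp8, which encodes CtIP, the cofactor of the MRE11 nuclease, was at 7.94 FPKM in the high and 6.75 FPKM in the low mPTP opening library, a ratio of 1.18 (1.09 to 1.27). Rad50, the ATPase that bridges broken ends, was at 10.1 FPKM in the high and 8.96 FPKM in the low mPTP opening library, a ratio of 1.13 (1.02 to 1.247). Both ratios are close to 1, and the many reads of these genes are what places their intervals above it. For Mre11a, the nuclease of the complex, the levels were 5.12 FPKM in the high and 4.49 FPKM in the low mPTP opening library. Its ratio of 1.14 was near that of Rad50, but it had fewer reads, and its interval, 0.997 to 1.30, held 1. Nbn, which brings the complex to breaks and activates ATM, was at 13.4 FPKM in the high and 13.8 FPKM in the low mPTP opening library, with an interval from 0.863 to 1.10. At this depth no difference could be detected for Mre11a or Nbn. The level of Rad50 was 1.97 times that of Mre11a in the high and 1.99 times in the low mPTP opening library, and that of Nbn was 2.62 and 3.06 times that of Mre11a.

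Brca1 and Brca2 were higher in the library of high mPTP opening, and their partners were less clearly so. Brca1, an E3 ubiquitin ligase and scaffold that favours resection and recruits PALB2 (chromosome 11, 101488764 to 101551955), was at 2.79 FPKM in the high and 2.0 FPKM in the low mPTP opening library. With 390 and 257 reads, the ratio was 1.4 (1.19 to 1.64). Bard1, its obligate ring-finger partner, was at 1.82 FPKM in the high and 1.45 FPKM in the low mPTP opening library, a ratio of 1.253 whose interval, 0.988 to 1.59, held 1. Brca2, which acts on single-stranded DNA at the break, was at 1.75 FPKM in the high and 1.37 FPKM in the low mPTP opening library, a ratio of 1.28 (1.1 to 1.5). For Palb2, Brip1 and Rad52 no difference could be detected at this depth. Palb2, the bridge between BRCA1 and BRCA2, was at 0.615 FPKM in the high and 0.452 FPKM in the low mPTP opening library (74 and 50 reads). Its ratio, 1.36, was no smaller than that of Brca2, but rests on few reads, with an interval from 0.938 to 1.99. Brip1, the BRCA1-bound helicase FANCJ, was at 1.38 FPKM in the high and 1.30 FPKM in the low mPTP opening library, with an interval from 0.843 to 1.33. Rad52, a strand annealing protein, was at 1.5 FPKM in the high and 1.71 FPKM in the low mPTP opening library, the only negative difference of this group, with an interval from 0.691 to 1.11. The level of Brca1 was 1.53 times that of Bard1 in the high and 1.37 times in the low mPTP opening library.

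The genes of the BCDX2 and CX3 complexes, small assemblies that aid strand exchange, had intervals that held 1 with 1 exception. Rad51d was at 4.77 FPKM in the high and 4.88 FPKM in the low mPTP opening library, a ratio of 0.977 (0.825 to 1.16), and Xrcc2, which binds the Rad51d protein, had a ratio of 0.978 (0.762 to 1.26). Rad51c was at 1.53 FPKM in the high and 1.48 FPKM in the low mPTP opening library, with an interval from 0.779 to 1.37. Xrcc3, the partner of the Rad51c protein, was at 2.46 FPKM in the high and 2.99 FPKM in the low mPTP opening library, a ratio of 0.823 (0.631 to 1.07). The exception was Rad51b, at 1.10 FPKM in the high and 0.710 FPKM in the low mPTP opening library, a ratio of 1.55 (1.04 to 2.37). It rests on about 68 and 40 reads, the fewest of any member in the low mPTP opening library, and its mean was under 1 FPKM. These 5 genes together summed to 11.4 FPKM in the high and 11.7 FPKM in the low mPTP opening library. Of the 5, 3 had a negative difference, while 45.4% of all measured genes had a positive one. After scaling to equal sums, which raised the median of all measured genes to 0.08, the difference of Xrcc3 alone stayed negative.

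The 2 RAD54 translocases, which drive strand exchange on chromatin, had unlike ratios, though their counting intervals overlapped. Rad54b was at 1.30 FPKM in the high and 0.781 FPKM in the low mPTP opening library, a ratio of 1.66 (1.23 to 2.27), whereas Rad54l was at 1.31 FPKM in the high and 1.26 FPKM in the low mPTP opening library, a ratio of 1.04 (0.827 to 1.31). Rad54b thus had 0.994 times the level of Rad54l in the high and 0.621 times in the low mPTP opening library. The value of Rad54b is uncertain, since 35.9% of its exon sequence is shared with other genes, mainly Fsbp on the same strand, which was listed at 0.0841 FPKM in the high and 0.137 FPKM in the low mPTP opening library. Rad54l shares 15.4% of its exon sequence with Lrrc41 on the opposite strand, a gene at 14.2 FPKM in the high and 13.3 FPKM in the low mPTP opening library, so reads of Lrrc41 may be part of its value. Of the RecQ helicases, Blm, which dissolves double Holliday junctions, was at 2.28 FPKM in the high and 1.60 FPKM in the low mPTP opening library, a ratio of 1.43 (1.2 to 1.7) without any shared exon sequence. Wrn, a helicase and exonuclease, was at 4.41 FPKM in the high and 3.99 FPKM in the low mPTP opening library, with an interval from 0.974 to 1.254.

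The FANCD2-FANCI pair, the substrate of the Fanconi core complex, had both its genes higher in the library of high mPTP opening. Fancd2 (chromosome 6, 113531682 to 113597017) was at 2.13 FPKM in the high and 1.38 FPKM in the low mPTP opening library. With 277 and 165 reads, the ratio was 1.54 (1.27 to 1.88). Fanci was at 1.86 FPKM in the high and 1.41 FPKM in the low mPTP opening library, a ratio of 1.32 (1.04 to 1.67), and shares 16.0% of its exon sequence with Polg on the opposite strand. Polg itself was at 4.35 FPKM in the high and 4.25 FPKM in the low mPTP opening library. The level of Fancd2 was 1.14 times that of Fanci in the high and 0.976 times in the low mPTP opening library, so the 2 partners stood near equal levels in both.

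The Fanconi core complex, which holds the ubiquitin ligase, was uneven. Fancb, an X-linked subunit of the ligase module (chromosome X, 164980592 to 164997272), was at 3.01 FPKM in the high and 1.91 FPKM in the low mPTP opening library, a ratio of 1.57 (1.2 to 2.08). Fanca (chromosome 8, 123268300 to 123318576) was at 1.71 FPKM in the high and 1.08 FPKM in the low mPTP opening library, a ratio of 1.59 (1.29 to 1.97). Fancm, the translocase that anchors the complex to DNA, was at 3.24 FPKM in the high and 2.43 FPKM in the low mPTP opening library, a ratio of 1.33 (1.16 to 1.52). These 3 were the core genes whose interval lay above 1. Fancg, which binds FANCA, was at 2.75 FPKM in the high and 3.25 FPKM in the low mPTP opening library, a ratio of 0.846 (0.683 to 1.05), and Fance, which binds FANCD2, had a ratio of 0.920 (0.771 to 1.10). Fanca was thus at 0.623 times the level of Fancg in the high and 0.331 times in the low mPTP opening library. Fancl, the E3 ligase subunit itself, was at 2.25 FPKM in the high and 2.07 FPKM in the low mPTP opening library, with an interval from 0.831 to 1.42. Fancf, an adaptor, was at 3.18 FPKM in the high and 2.91 FPKM in the low mPTP opening library (interval 0.794 to 1.51), and Fancc was at 0.891 and 0.707 FPKM (interval 0.951 to 1.68). Opposite-strand overlap covers 10.5% of Fanca exon sequence (with Zfp276), 13.7% of Fancl (Vrk2), 15.0% of Fancf (Gas2, at 18.2 FPKM in the high and 17.1 FPKM in the low mPTP opening library) and 18.6% of Fancc. Whether counting used strand is not given in the sources used here, so these values are uncertain to that extent.

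The checkpoint kinases, which signal breaks and stalled forks to the cell cycle, had ratios between 0.988 and 1.13, and the interval held 1 for each of the 4. Atm, the kinase activated by breaks, was at 3.90 FPKM in the high and 3.66 FPKM in the low mPTP opening library, a ratio of 1.07 (0.952 to 1.2). Atr, the kinase activated by single-stranded DNA, was at 1.39 FPKM in the high and 1.23 FPKM in the low mPTP opening library, a ratio of 1.13 (0.998 to 1.29). Chek1, the effector of ATR, was at 3.75 FPKM in the high and 3.32 FPKM in the low mPTP opening library, a ratio of 1.13 (0.947 to 1.35). Chek2, the effector of ATM, was at 4.40 FPKM in the high and 4.45 FPKM in the low mPTP opening library, a ratio of 0.988 (0.812 to 1.2). For both Atm and Chek2 the upper bound of the counting interval was 1.2.

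Exon overlap and gene length were measured beside the differences. Of the 34 members 16 share some exon sequence with another annotated gene. Among the 17 measured members that share none, 4 were higher by 25% or more (Exo1, Fancb, Blm and Brca1), against 6.59% of all measured genes, and the median difference of the 17 was 0.07. The higher members were spread over the length ranges, with the most among the longest. From 1500 to 3000 nt of exon 1 of 4 measured members was higher by 25% or more (Fancb) and the median difference was 0.03, and from 3000 to 4500 nt none of 6 was, with a median of -0.02. From 4500 to 6000 nt 1 of 8 was higher by that size with a median of 0.16, and from 6000 to 8000 nt 1 of 4 with a median of 0.08. Of 9 measured members with at least 8000 nt 4 were higher by that size, and their median was 0.30. Across protein-coding genes the medians in these ranges lay between -0.03 and -0.01, and the share higher by 25% or more was 6.99% from 1500 to 3000 nt and 3.97% at 8000 nt or more. The medians of the members rest on 4 to 9 genes each and do not form an even trend.

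**Figure D3:**
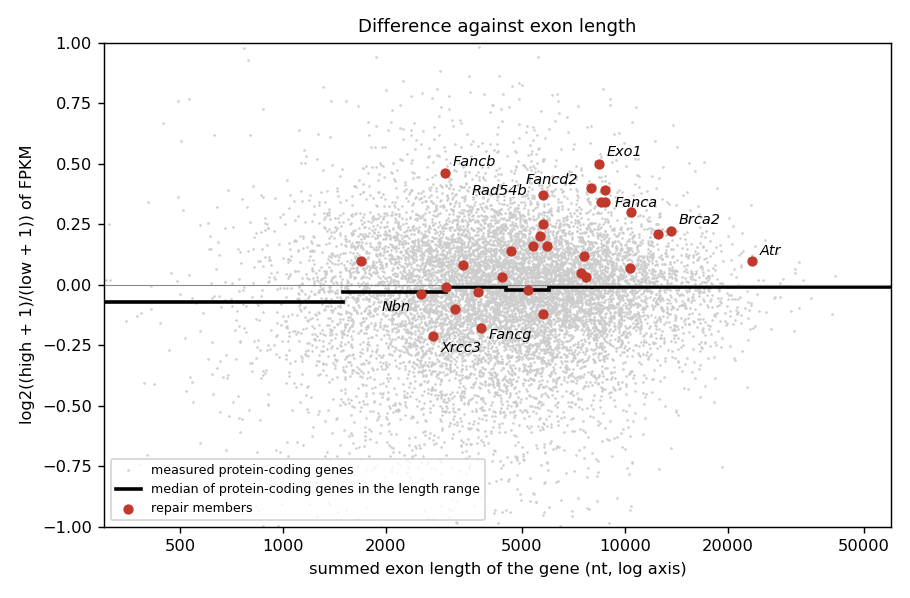
Difference between the libraries, as log2((high + 1)/(low + 1)) of FPKM, against summed exon length (nt, log axis) for measured protein-coding genes (grey), with the median in each length range (black lines) and the 31 measured repair members (red, some named). The black medians stay between -0.07 and -0.01, while the 9 members of at least 8000 nt all lie above 0; 69 of the 11127 grey genes fall outside the plotted range of differences.

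Other genes of the same pathway were counted from a list of 69. It holds nucleases, helicases, ubiquitin signalling at breaks, the single-strand binding proteins, and the checkpoint clamp with its loader. Of 62 measured, 11 were higher by 25% or more and none lower by the same factor; the median difference was 0.14, against the shares of 6.59% and 13.3% over all measured genes. The most positive were Eme1, a subunit of the MUS81 nuclease, at 2.74 FPKM in the high and 1.47 FPKM in the low mPTP opening library (ratio 1.87, interval 1.37 to 2.58), and Mcm8, a helicase of recombination, at 3.76 FPKM in the high and 2.2 FPKM in the low mPTP opening library (ratio 1.71, interval 1.37 to 2.15). The most negative were Helq, a helicase, at 2.14 FPKM in the high and 2.57 FPKM in the low mPTP opening library, and Slx1b, a nuclease subunit, at 1.21 FPKM in the high and 1.51 FPKM in the low mPTP opening library, both with intervals that held 1. Overlap with other annotated genes covers 10.7% of Eme1 exon sequence (Lrrc59 and Mrpl27) and 16.4% of Slx1b (Bola2 and Gm6939), while Mcm8 and Helq share none. Genes that the deposited table itself annotates to break repair by homologous recombination had a smaller median difference. They held 61 measured genes, of which 9 passed that factor upward and 2 downward, and the median was 0.06, and without the members these were 6 and 2 of 47, with a median of 0.06. Of the 13 measured genes annotated to repair of interstrand crosslinks none differed by that size, and their median was -0.01, or 0.10 after scaling to equal sums. Without the members and before scaling, 9 measured genes remained, again none past that size, with a median of 0.14. The median of all measured genes was -0.02, and 0.08 after that scaling.

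Other routes of DNA repair gave a mixed picture. End joining, which seals broken ends without a template, had a median of 0.03 over 14 measured genes (0.13 after scaling to equal sums), with none higher by 25% and 2 lower by the same factor. Of all measured genes 6.59% passed that size upward and 13.3% downward, so the count of lower genes was near the share over all genes. Its most positive genes were Rif1, which limits resection, at 4.78 FPKM in the high and 3.64 FPKM in the low mPTP opening library (ratio 1.31, interval 1.18 to 1.46), and Xrcc6, which encodes Ku70, at 6.88 and 5.41 FPKM (ratio 1.27, interval 1.11 to 1.46). The 2 lower genes were Polm, an end joining polymerase, at 2.97 FPKM in the high and 4.19 FPKM in the low mPTP opening library, and BC029214, the older name in the table for Paxx, whose protein binds Ku, at 3.04 FPKM in the high and 5.21 FPKM in the low mPTP opening library. Mismatch repair had a median of 0.13 over 10 measured genes, 8 of them positive (0.22 with 9 positive after scaling to equal sums). Pcna of this list also stands in the list of G1/S genes used below. Base excision repair had a median near 0 over 16, with 8 positive (0.07 with 11 positive after scaling to equal sums). Before scaling 45.4% of all measured genes were positive. Nucleotide excision repair had a median of -0.04 over 17, or 0.07 after scaling to equal sums. That scaling raised the median of all measured genes from -0.02 to 0.08. The scaled medians of these routes stand beside that 0.08. Gtf2h4 of TFIIH was at 5.05 FPKM in the high and 3.57 FPKM in the low mPTP opening library. The damage binding Xpa was at 3.19 and 5.05 FPKM. The difference between these lists and the members was not tested, since each group has 1 library.

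Genes of the cell cycle had differences of the same sign as most repair members, with medians farther from 0. Positive differences were seen for 29 of 30 genes of the G1/S transition, 10 of them by 25% or more, and the median was 0.21, led by Rrm2 at 42.1 FPKM in the high and 26.4 FPKM in the low mPTP opening library. All 28 genes of G2/M were positive, 25 of them by 25% or more, and their median was 0.60. Among 28 p53 targets 26 differences were negative and 13 of these passed the same factor downward, and the median was -0.28. For comparison, 45.4% of all measured genes had a positive difference, 6.59% were higher by 25% or more and 13.3% were lower by the same factor. The median of the repair members, 0.12, lay between that of all measured genes and those of the cell cycle lists. The part of cells in cycle in each library was not measured, and its bearing on the repair genes was not tested.

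**Figure D4:**
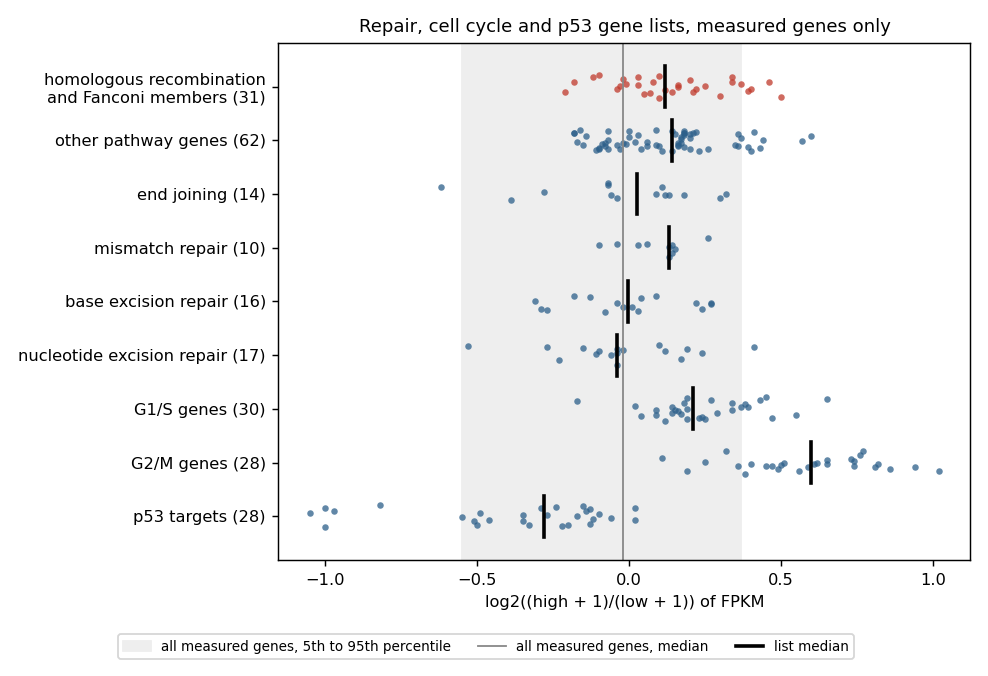
Difference between the libraries, as log2((high + 1)/(low + 1)) of FPKM, for measured genes of each list (number in brackets), with 1 point per gene, a black bar at the list median, and the 5th to 95th percentile of all measured genes (-0.55 to 0.37) in grey. The repair members (red) have a median of 0.12, the G1/S genes 0.21, the G2/M genes 0.60 and the p53 targets -0.28; vertical scatter within a row only separates points.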

How the data were processed

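Per the labels' protocols, RNA was isolated with Trizol and libraries were built by the TruSeq RNA kit of Illumina. The submitters' processing notes name the aligners TopHat2 2.0.12 and Bowtie2 2.2.3 and the genome mm10. Which tool counted reads, with which annotation and strand setting, is not given in the sources used here. The authors deposited 1 table of FPKM values (23097 rows with positions), whose 2 columns were matched to the libraries by name. Rows of 1 symbol were added. FPKM times GENCODE M21 exon length gave whole multiples of 1 step per library (within 0.05 reads for 93.5% of genes with up to 20 reads in the high and 93.2% in the low mPTP opening library), which recovered reads. For 4 members (Rad51b, Rbbp8, Fance and Fancm) reads were not whole and were rounded, so their intervals are approximate. Intervals are Clopper-Pearson intervals of the share of reads in 1 library, at 95%, turned into ratios; PCR copies are not independent molecules, so they cover counting error only. No p-value could be had from single libraries. The members and lists were chosen with earlier results of these data known. Named genes were all members and, of each other list, up to 2 with the most positive and 2 with the most negative difference. The Gene Ontology lists, the count without overlapping members and the scaling to equal sums were added after seeing the data. Promoters are RefSeq windows of GRCm38.p6, found for 25 of 34 members. 1 gene of the pathway is not reported here and was left out of the lists. Scripts were tested on simulated data. Tables were handled in pandas 2.3.3 under Python 3.11.15, statistics in SciPy 1.17.1 with NumPy 2.4.6, and figures in matplotlib 3.10.9.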

Additional observations from a re-analysis of the deposited data

How the results depend on the processing

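No paired analysis was possible because each group has 1 library. The median difference of the measured members stayed positive under every alternative, between 0.06 (mean of at least 5 FPKM, 4 members) and 0.25 (sum of 1000000), and no alternative gave a member lower by the factor used for 25% upward. The median of all genes that passed the filter also moved. It was -0.02 in the main setting, 0.00 at a mean of at least 5 FPKM and 0.09 with the sum of 1000000. The count of members higher by 25% or more, 7, was 0 with a pseudocount of 5 FPKM (2.88% of all measured genes), 12 after scaling to a sum of 1000000 with or without mitochondrially encoded genes (16.1% with, 15.9% without), 2 of 17 at a mean of at least 2 FPKM (6.27%), 0 of 4 at a mean of at least 5 FPKM (6.36%) and 4 of 17 without members that share exon sequence (6.59%). Scaling to a sum of 1000000 also lowers the weight of the pseudocount; with equal sums at the deposited level, added after seeing the data, the count was 8 (13.4%). At 1.5-fold or more, where the main count was 0, it was 5 with a pseudocount of 0.1 FPKM (2.71% of all measured genes), 5 after either scaling to a sum of 1000000 (3.78%) and 0 with equal sums at the deposited level (2.65%). Members with a positive difference were 23 of 31 in the main setting, against 45.4% of all measured genes. They numbered 11 of 17 at a mean of at least 2 FPKM, 2 of 4 at a mean of at least 5 FPKM and 11 of 17 without shared exon sequence. Fewer members enter these counts by construction. After scaling to a sum of 1000000 they numbered 28 of 31 (27 without mitochondrially encoded genes), and 28 with equal sums at the deposited level. The share of all genes with a positive difference is not given for the other filters and scalings. Scaling by the median ratio or a trimmed mean shifted ratios by 0.03 on the log2 scale. Negative members numbered 8 as deposited, and after scaling to a sum of 1000000 Xrcc3, Fancg and Rad52 stayed negative (with Fance too when mitochondrially encoded genes were left out). The end joining median, 0.03, was -0.04 without a filter, -0.04 at a mean of at least 2 FPKM and -0.05 at 5 FPKM, but 0.16 after scaling to a sum of 1000000 (0.15 without mitochondrially encoded genes) and 0.13 with equal sums. Under these scalings the median of all measured genes was 0.09 (0.09) and 0.08. Depth limits the low members, of which Rad51b and Palb2 had at most 74 reads in a library.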
